A study of Mus musculus with 2 samples.

Results

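Open chromatin was examined at 9 genes that act downstream of neurogenins in vertebrate neurogenesis, namely Hes6, Btg2, Gadd45g, Cbfa2t3, Rcor2, Myt1, Nhlh1, Nhlh2 and Sstr2. Each gene was taken with the 50 kb on either side of its GENCODE gene body, and every ATAC-seq peak whose summit fell in that window was counted as a member. This gave 149 of the 117165 peaks of the control library and 169 of the 124935 peaks of the Ngn3-OE library. The windows of 7 of the 9 genes also hold other protein-coding genes, from 2 at Btg2 to 5 at Cbfa2t3, so a peak in a window is not thereby a regulatory element of the named gene.

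The cells were late retinal progenitor cells (RPCs) of newborn mice, the dividing cells that yield rods, bipolar cells and Müller glia. P1 pups were electroporated in vivo with a control plasmid or a plasmid that overexpresses Neurog3 (Ngn3-OE), both with GFP, and GFP+ cells were sorted at DAE 2, 2 days after electroporation, with 50000 cells in each library. There was 1 library in each of the 2 groups. The groups therefore cannot be tested against each other, p-values are not printed, and all intervals below cover counting error only. The strain, the number of animals behind a library and the promoter that drives the transgene were not given in the sources used here. The sort keeps electroporated retinal cells of any type, so a shift in the mix of cell states and a shift within each cell cannot be told apart.

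Neurogenins are basic helix-loop-helix (bHLH) proneural factors. They bind E-box DNA with an E-protein partner, start neuronal differentiation in a dividing progenitor and pass the task on to other transcription factors, while Notch signalling and Hes repressors hold neighbouring progenitors back. Among the genes studied here, Hes6 is a Hes relative that opposes Hes1 and favours differentiation, and Btg2 and Gadd45g slow or stop the cell cycle. Cbfa2t3 and Rcor2 code for corepressor proteins of the ETO and CoREST families. Myt1 is a zinc finger factor of early neurons, Nhlh1 and Nhlh2 are bHLH factors of newly born neurons, and Sstr2 is a receptor for the neuropeptide somatostatin.

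The median number of tags at the summit of a peak was 9 in each library. Neurog3 itself had no peak in its gene body in control and 1 peak in Ngn3-OE, with 1591 tags and the top rank of its list. Reads from the plasmid and from the genomic copy cannot be told apart there. A peak lay within 3 kb of a start site at 8 of 8 retinal progenitor markers, 3 of 3 rod precursor markers and 3 of 3 Müller glia markers in both libraries. The same held for 2 of 5 blood and vessel markers, with no peak at Ptprc, Hba-a1 or Pecam1, and for 1 of 3 pigment epithelium markers, with no peak at Rpe65 or Tyr. The strength of these peaks differed between the libraries. The best peak ranked lower in Ngn3-OE at 7 of the 8 progenitor markers, Sox2 being the exception, with a median percentile of 87.0 in control and 82.7 in Ngn3-OE and ranges of 50.2 to 96.8 and 32.2 to 96.7. It ranked higher at 3 of 3 rod precursor markers, as at Otx2 with 16 tags in control and 26 in Ngn3-OE. Among the Müller glia markers, Rlbp1 had 41 and 16 tags, Slc1a3 34 and 39, and Glul 122 and 123. The part of these marker differences in the results below was not tested.

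The sequences that carry the main observations are given first, on mm10 (GRCm38). The E-box core CATCTG is shown in capitals in the regions below, which are Ngn3-OE peaks, except that of the longer Sstr2 peak only the 100 bp on either side of its summit are printed. They are the regions outside promoters at Nhlh1 and Sstr2 whose tag ratio of Ngn3-OE over control had a counting interval above 1, and the strongest region with the full E-box at Myt1.
Nhlh1, chr1:172071587-172071841, plus strand: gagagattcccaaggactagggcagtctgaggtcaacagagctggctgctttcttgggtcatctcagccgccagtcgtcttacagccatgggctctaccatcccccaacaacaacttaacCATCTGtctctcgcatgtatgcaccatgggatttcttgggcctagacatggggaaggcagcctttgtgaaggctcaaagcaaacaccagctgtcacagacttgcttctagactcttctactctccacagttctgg
Nhlh1, chr1:172061249-172061543, plus strand: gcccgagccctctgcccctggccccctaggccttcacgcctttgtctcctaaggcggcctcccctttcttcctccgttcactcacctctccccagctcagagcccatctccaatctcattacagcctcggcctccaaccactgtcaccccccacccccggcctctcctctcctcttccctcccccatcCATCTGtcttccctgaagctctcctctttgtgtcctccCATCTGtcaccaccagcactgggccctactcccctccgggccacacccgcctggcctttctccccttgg
Sstr2, chr11:113611722-113611922, plus strand: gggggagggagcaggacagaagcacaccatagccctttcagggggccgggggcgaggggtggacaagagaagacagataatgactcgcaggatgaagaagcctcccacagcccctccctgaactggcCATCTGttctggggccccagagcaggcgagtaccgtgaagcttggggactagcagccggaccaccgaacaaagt
Myt1, chr2:181759114-181759388, plus strand: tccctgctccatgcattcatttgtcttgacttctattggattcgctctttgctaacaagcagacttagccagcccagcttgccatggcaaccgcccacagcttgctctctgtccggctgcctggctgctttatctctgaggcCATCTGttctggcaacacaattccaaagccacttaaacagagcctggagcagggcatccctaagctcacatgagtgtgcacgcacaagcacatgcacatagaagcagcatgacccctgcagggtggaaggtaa

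The next sequence is the control peak downstream of Nhlh1 that had fewer tags in Ngn3-OE. Capitals mark a match to the SOX-type motif (CCATTGT or CCTTTGT on either strand).
Nhlh1, chr1:172048584-172048743, plus strand: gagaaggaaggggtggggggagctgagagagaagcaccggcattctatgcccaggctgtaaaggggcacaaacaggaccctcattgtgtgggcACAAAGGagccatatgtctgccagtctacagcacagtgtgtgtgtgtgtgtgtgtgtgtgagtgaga

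The Ngn3-OE promoter peak of Gadd45g is shown up to the base before its start site, with every CANNTG, the general E-box, in capitals.
Gadd45g, chr13:51846461-51846677, plus strand: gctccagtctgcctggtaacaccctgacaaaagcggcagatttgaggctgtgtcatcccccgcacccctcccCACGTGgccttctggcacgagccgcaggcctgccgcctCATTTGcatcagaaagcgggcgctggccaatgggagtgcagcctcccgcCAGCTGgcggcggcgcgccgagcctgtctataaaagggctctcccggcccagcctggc

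The windows below show the full 10-base Ngn3 E-box consensus in capitals with 15 bases on each side. They stand for regions with a full E-box at the other genes. A peak is taken to have a full E-box where one lies within 100 bp of its summit, inside the called interval or not. The Btg2 box shown lies outside the called interval of its peak.
Btg2, chr1:134086286-134086325, minus strand: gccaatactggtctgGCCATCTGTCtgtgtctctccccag
Gadd45g, chr13:51833717-51833756, plus strand: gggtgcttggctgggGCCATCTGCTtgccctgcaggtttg
Cbfa2t3, chr8:122677175-122677214, plus strand: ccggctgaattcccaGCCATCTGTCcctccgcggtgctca
Cbfa2t3, chr8:122640020-122640059, plus strand: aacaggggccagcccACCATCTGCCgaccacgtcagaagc
Rcor2, chr19:7266016-7266055, minus strand: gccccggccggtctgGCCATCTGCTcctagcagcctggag
Nhlh2, chr3:101967396-101967435, minus strand: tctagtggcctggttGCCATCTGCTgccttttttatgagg

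A peak summit lay within 3 kb of an annotated start site of 9 of 9 genes, where 69.5% of the 21911 protein-coding genes had such a peak in both libraries. With a -log10 q of at least 5 in both lists this held for 8 of the genes, Nhlh2 being lost. Most peaks of the windows were also present in both. Of the 149 control peaks, 19 were control-only, meaning that no Ngn3-OE peak overlapped them by 1 bp, which is 12.8% (95% Wilson interval 8.32 to 19.1) against 21.7% of the whole control list. Of the 169 Ngn3-OE peaks, 40 were Ngn3-OE-only, which is 23.7% (17.9 to 30.6) against 26.6% of the whole Ngn3-OE list. The Ngn3-OE share was thus near the background, and the control-only share lay below it; with a flank of 10 kb it was 13.0% (7.02 to 23.0) and with 100 kb 17.2% (13.0 to 22.4), intervals that include the share of the whole list. The one-library peaks were weak, with a median of 5 tags for control-only and 6 for Ngn3-OE-only peaks, whereas shared peaks had a median of 14 control tags.

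The number of peaks per window lay between 13 and 27 in the control list and between 13 and 29 in the Ngn3-OE list, above the median of 9 and 10 over all protein-coding genes. Btg2 had 18 control and 24 Ngn3-OE peaks, with 0 control-only and 6 Ngn3-OE-only, where the median protein-coding gene had 1 control-only peak (quartiles 0 and 3) and 2 Ngn3-OE-only peaks (quartiles 1 and 4). Rcor2 went from 14 to 19 peaks with 6 Ngn3-OE-only, and Nhlh2 from 13 to 17 with 7 Ngn3-OE-only and 3 control-only. At Hes6 and Myt1 the counts were equal in the libraries, at 13 and 16 peaks. Nhlh1 was the gene with fewer peaks in Ngn3-OE, 17 against 18 in control.

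**Figure D1:**
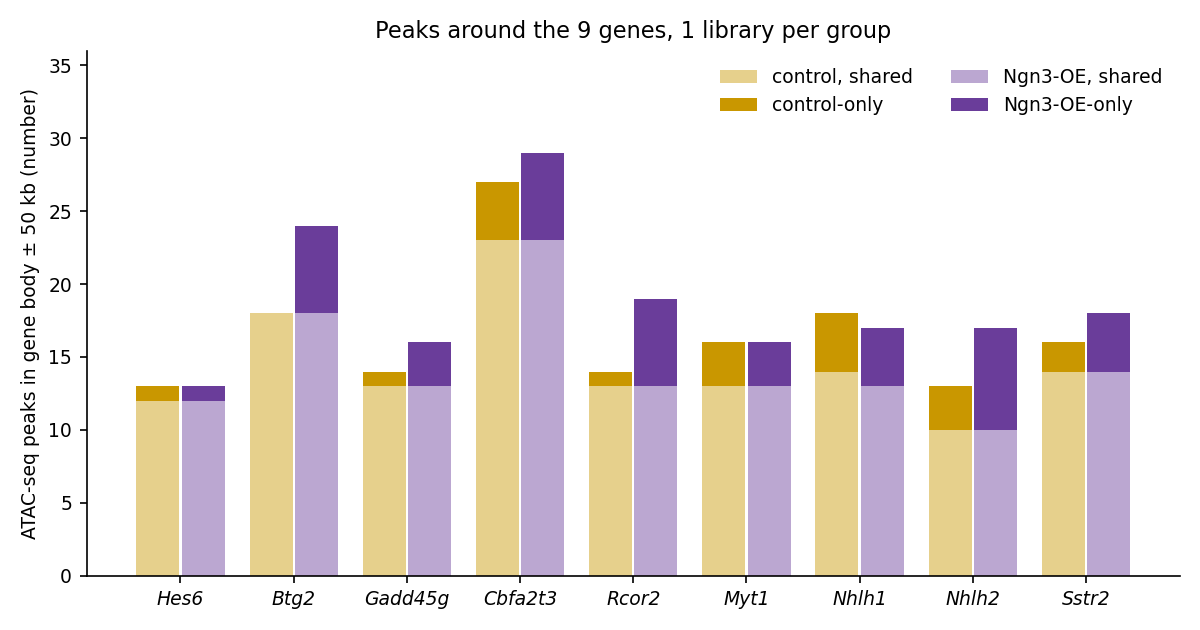
Number of ATAC-seq peaks (y axis) with a summit in the gene body ± 50 kb of each of the 9 genes (x axis), in control (ochre) and Ngn3-OE (purple), 1 library each, with shared peaks pale and one-library peaks dark. Shared peaks make up most of every bar, and 40 of the 169 Ngn3-OE peaks are Ngn3-OE-only, 23.7% against 26.6% of the whole list.

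Shared peaks were compared on 2 scales. The rank percentile orders the peaks of a list by -log10 q and runs up to 100 for the strongest. The tag ratio divides the tags at the summit in Ngn3-OE by those in control, after scaling by the lowest background of each library, and is given as log2 with an exact 95% counting interval. Seen from the control list there were 130 shared peaks. Of these, 21 rose by 20 or more percentiles (16.2%, 10.8 to 23.4, against 16.0% of all shared peaks), and 10 fell by as much (7.69%, 4.23 to 13.6, against 10.5%). A tag ratio of 1.5 or more was seen at 28 (21.5% against 20.7%), and a ratio of 1/1.5 or less at 9 (6.92% against 11.3%). The median log2 ratio was 0.18 at the 9 genes and 0.12 over all 91741 shared peaks. Ratios above 0 were seen at 89 of the 130 peaks, which is 68.5% against 62.3% of all shared peaks, and ratios above the general median at 75. The larger differences lay at single regions.

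The counting interval of the tag ratio lay above 1 at 7 of the 130 shared peaks (5.38%, 2.63 to 10.7), where 3.70% of all shared peaks did so. It lay below 1 at 2 (1.54%, 0.423 to 5.44), against 2.27% of all. The Wilson intervals of both shares include the shares of all shared peaks. Of the 9 regions, 4 were at Nhlh1, 2 at Hes6 and 1 each at Gadd45g, Sstr2 and Btg2. Among those at Nhlh1 is a start site pair that sets a fragment of the control promoter against a whole Ngn3-OE peak. When ratios were read relative to the median of all shared peaks, 5 lay above it (against 2.23% of all shared peaks) and 3 below it (against 3.20%), a setting chosen after seeing the data. The regions at Sstr2 and Btg2 were then no longer above, and a region near Vangl2 in the Nhlh1 window was added below. They are described gene by gene below, with the strongest, the one-library and the E-box peaks of each gene.

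**Figure D2:**
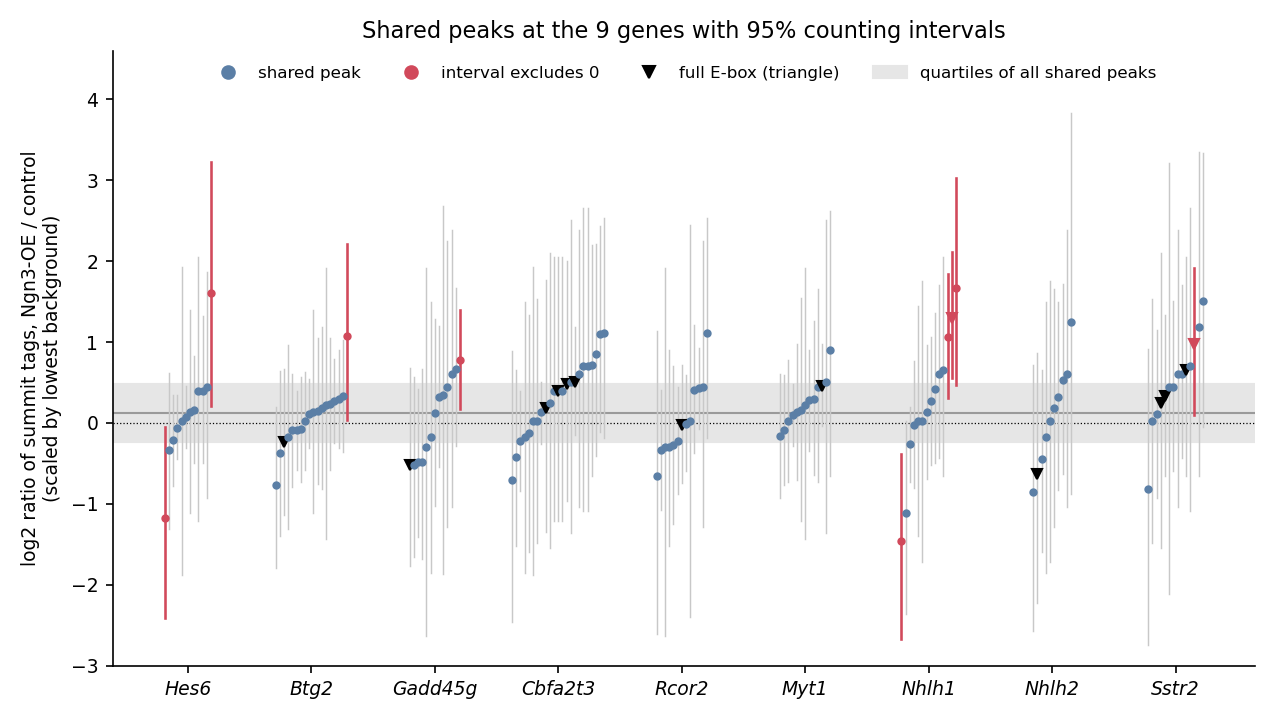
The log2 ratio of summit tags, Ngn3-OE over control (y axis), for each shared peak at the 9 genes (x axis, peaks sorted within a gene), with 95% counting intervals as vertical lines, triangles for peaks with the full E-box and the quartiles of all shared peaks as a grey band. Most intervals cross 0, and those in red, 7 above and 2 below, do not.

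Nhlh1 (ENSMUSG00000051251.3, chr1:172052292-172057573, minus strand), a bHLH gene of newly born neurons, held the largest part of these regions. The peak 14.1 kb upstream, in an intron of Ncstn, had 21 tags in control and 51 in Ngn3-OE, and went from rank percentile 82.8 to 95.1. Its log2 ratio was 1.30 (0.55 to 2.11), and it is the only peak of the window with the full E-box. The sequence printed above carries the consensus 20.5 bp from the Ngn3-OE summit. The intergenic peak 3.89 kb upstream had 23 tags in control and 47 in Ngn3-OE, a log2 ratio of 1.06 (0.31 to 1.84). Its sequence holds 2 copies of the core, and no full consensus lay within 100 bp of its summit. At the start site, 2 control peaks with 8 and 19 tags, 261 bp and 107 bp upstream, overlapped a single Ngn3-OE peak with 25 tags. The log2 ratio was 1.67 (0.47 to 3.03) for the first and 0.42 (-0.50 to 1.36) for the second, so the larger value sets a fragment of the control promoter against a whole Ngn3-OE peak.

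The Nhlh1 window also held regions with fewer tags in Ngn3-OE. The intergenic peak 8.93 kb downstream of the 5′ end had 28 tags in control and 10 in Ngn3-OE, with a log2 ratio of -1.46 (-2.67 to -0.38) and a fall from percentile 83.7 to 34.6. It carries the SOX-type motif, as do the peaks 14.1 kb and 3.89 kb upstream that had more tags in Ngn3-OE. An Ngn3-OE-only peak with 13 tags and percentile 52.5 lay next to it, at 8666 bp. A further peak, 29.7 kb downstream and 537 bp from a start site of Vangl2, had 22 tags in control and 10 in Ngn3-OE, and its interval (-2.36 to 0.02) reached 0, though relative to the median of all shared peaks it did not (-2.47 to -0.09). The strongest peak of the window was 72 bp from the start site of Ncstn and had 89 tags in control and 73 in Ngn3-OE (-0.26, -0.73 to 0.20). The strongest control-only peak, 987 bp upstream of Nhlh1, had 12 tags.

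Nhlh2 (ENSMUSG00000048540.8, chr3:102010076-102015492, plus strand), its close relative, had weak peaks throughout, with at most 18 tags in control and 17 in Ngn3-OE. Its promoter peak, 124 bp upstream, had 7 tags in both. The strongest peak within 3 kb of a start site was another, 2750 bp downstream in control, with 8 tags against 7 in Ngn3-OE. No shared peak of Nhlh2 had an interval that excluded 1. The largest rise in rank, 12.8 kb upstream, was from 3 tags to 7, and the largest fall, 45.6 kb upstream, from 11 tags to 6. Each rests on few tags. The strongest peak of the window was the one 13.4 kb downstream in control, with 18 tags against 13 in Ngn3-OE, and the one 46.3 kb upstream in Ngn3-OE, with 17 tags against 12 in control.

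The E-boxes of the Nhlh2 window lay mostly at peaks called after Ngn3-OE. The full consensus was present within 100 bp of the summit at 1 of 13 control peaks and 4 of 17 Ngn3-OE peaks. Of these 4, 3 were Ngn3-OE-only. These lay 1.93 kb and 3.00 kb downstream of the 5′ end, in exons of Nhlh2, with 11 and 7 tags, the first being the strongest Ngn3-OE peak near a start site, and 39.3 kb downstream, between genes, with 8 tags and percentile 55.0, the highest of the Ngn3-OE-only peaks at Nhlh2. The shared peak with a full E-box, 42.7 kb upstream, had 11 tags in control and 7 in Ngn3-OE (-0.63, -2.23 to 0.87), which is the opposite direction. The strongest of 3 control-only peaks had 4 tags and percentile 14.7.

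Myt1 (ENSMUSG00000010505.16, chr2:181763332-181827797, plus strand), a zinc finger factor that promotes neuronal differentiation together with proneural factors, had a strong intergenic region 4.08 kb upstream. It had 59 tags in control and 80 in Ngn3-OE, at percentiles 95.1 and 97.0, and the log2 ratio of 0.46 (-0.04 to 0.97) fell just short of excluding 0. The sequence above holds the single full E-box of the window, 31.5 bp from the summit. The Myt1 start site regions had similar tags in both libraries. The peak 157 bp upstream had 12 and 16 tags, and the strongest promoter peak, at an internal start site 3.75 kb downstream, had 32 in both. An Ngn3-OE-only peak with 19 tags and percentile 50.7 was called 461 bp upstream. The largest rise, from 6 tags to 11, was 29.6 kb downstream in an intron. The largest fall was of 1.80 percentiles, from 40 tags to 37, in the intronic peak 12.6 kb downstream, and the strongest of 3 control-only peaks, 77.4 kb downstream, had 9 tags. The strongest peak of the window, with 115 tags in control and 121 in Ngn3-OE, lies at the start site of the neighbour Polr3k.

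Cbfa2t3 (ENSMUSG00000006362.16, chr8:122625141-122699109, minus strand), a corepressor gene of the ETO family, had the most peaks, 27 in control and 29 in Ngn3-OE. Its strongest promoter peak was 21.9 kb downstream of the 5′ end and 846 bp from an internal start site. This peak had 35 tags in control and 49 in Ngn3-OE (0.51, -0.15 to 1.18), with a full E-box 30.5 bp from the Ngn3-OE summit. Full E-boxes were also present in 3 other shared peaks, in introns of Cbfa2t3 47.7 kb and 59.1 kb downstream and in an intronic region 81.0 kb downstream, past the end of the gene and nearest to Pabpn1l, with 8, 8 and 7 tags in control and 9, 11 and 9 in Ngn3-OE. All 4 ratios were above 0, and all 4 intervals included 0.

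Across the Cbfa2t3 window, 18 of 23 shared peaks had a log2 ratio above 0, with a median of 0.39, and 16 lay above the median of all shared peaks. In rank, 7 rose by 20 percentiles or more while 2 fell. Of all shared peaks, 62.3% had a ratio above 0, 16.0% rose by as much and 10.5% fell. The shared peaks of this window had a median of 8 control tags. The largest rise was an intronic peak 33.2 kb downstream with 8 tags in control and 17 in Ngn3-OE (1.11, -0.18 to 2.53). The largest fall was 10.6 kb upstream, from 10 tags to 6. No interval in this window excluded 1. The strongest peak, 67 bp from the start site of Galns, had 110 and 118 tags. The strongest Ngn3-OE-only peak had 10 tags and lay 46.5 kb upstream, and the strongest control-only peak had 6 tags and lay 29.6 kb downstream.

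Rcor2 (ENSMUSG00000024968.14, chr19:7267325-7275225, plus strand), a corepressor partner of the demethylase LSD1, showed almost equal tags at its promoter. The peak at the 5′ end had 50 tags in control and 49 in Ngn3-OE, a log2 ratio of -0.01 (-0.60 to 0.59). The peak 1.33 kb upstream, with the only full E-box of the window, had 35 and 34 tags (-0.02, -0.74 to 0.71). A full E-box near a promoter was thus present here without a difference in tags beyond counting error. Further upstream, a control-only peak with 17 tags at 3.07 kb upstream and an Ngn3-OE-only peak with 20 tags at 2.24 kb upstream were called. The largest rise, 12.0 kb downstream, was from 8 tags to 17 (1.11, -0.18 to 2.53), and the largest fall, 8.92 kb downstream, from 8 to 5. The strongest peak, 106 bp from a start site of Cox8a, had 62 tags in control and 82 in Ngn3-OE (0.43, -0.07 to 0.93).

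**Figure D3:**
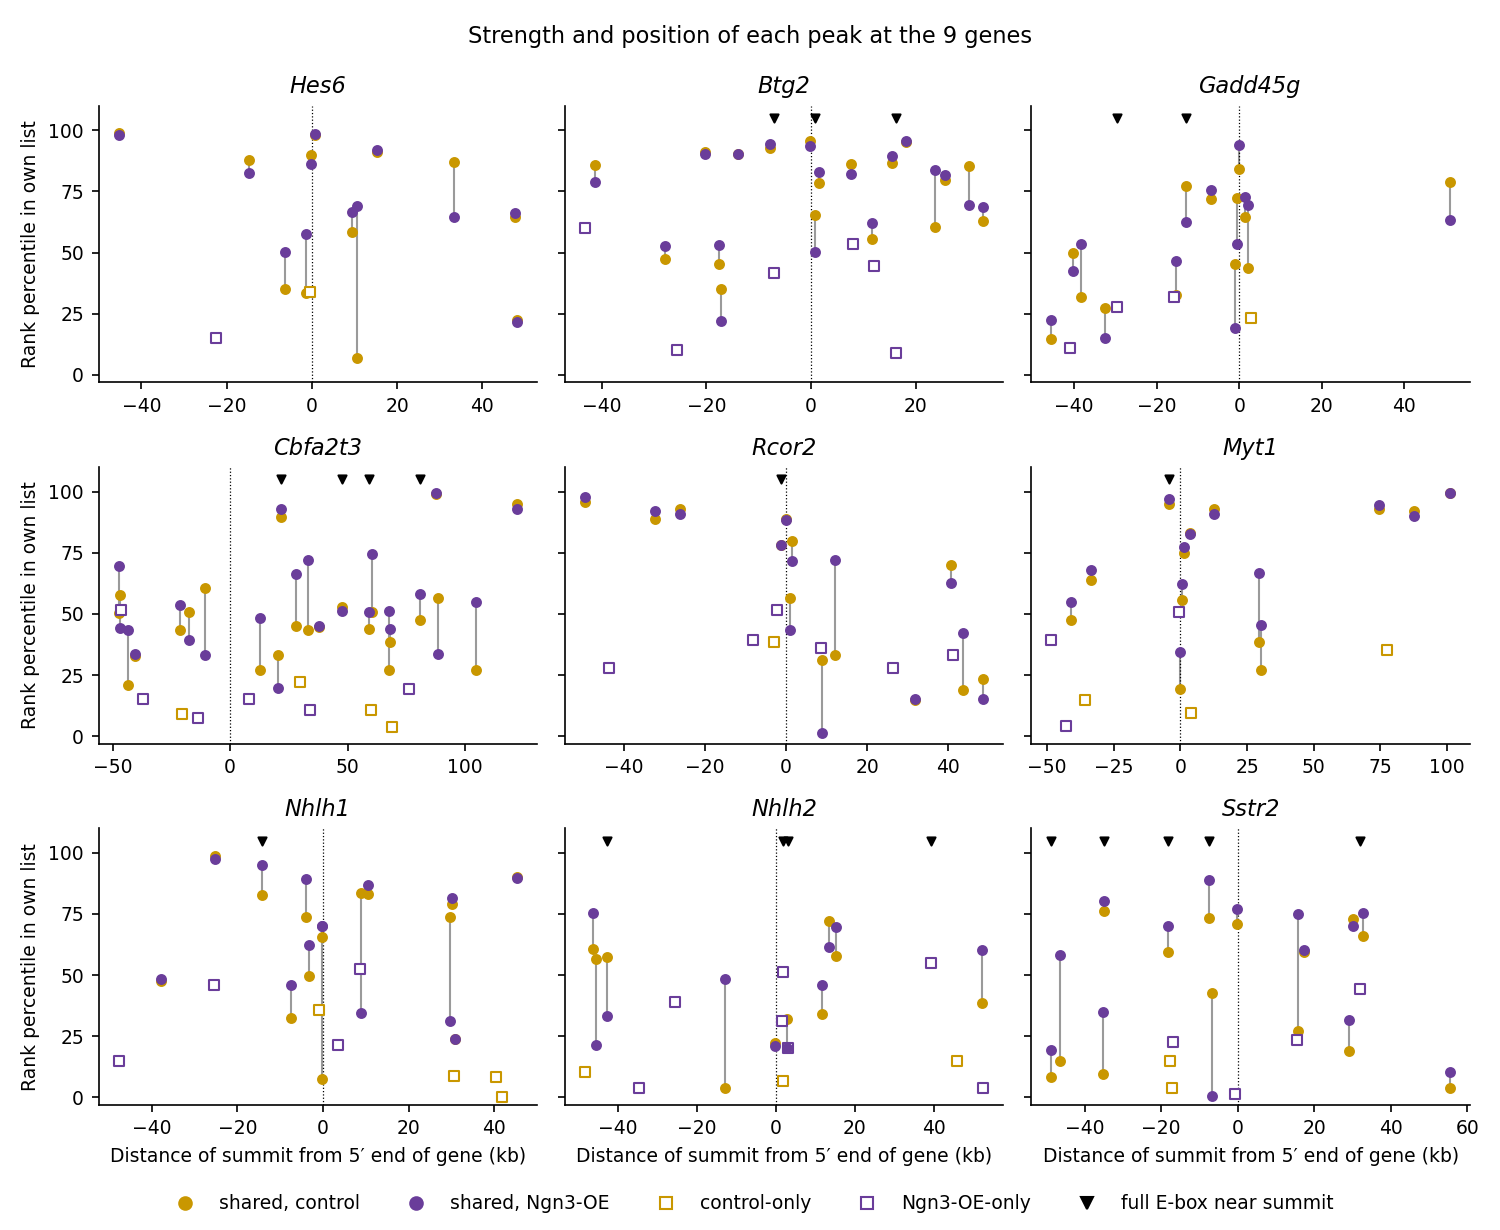
Rank percentile of each peak in its own list (y axis) against the distance of its summit from the 5′ end of the gene in kb, upstream to the left (x axis), in 9 panels, with shared peaks as joined ochre (control) and purple (Ngn3-OE) points, one-library peaks as open squares and black triangles over peaks with the full E-box. Ranks end at 100, so peaks near the top of a list have little room to rise; among the long joining lines is that of the Hes6 peak that went from 7.06 to 68.9.

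Gadd45g (ENSMUSG00000021453.2, chr13:51846678-51848468, plus strand), a gene of growth arrest, had its largest difference at the promoter itself. The peak 114 bp upstream had 38 tags in control and 64 in Ngn3-OE, with percentiles of 84.1 and 94.0 and a log2 ratio of 0.78 (0.17 to 1.40). It was the strongest peak of the window in both libraries. The promoter sequence above holds 3 general E-boxes (CANNTG) in its 217 bases and no CATCTG core. In the 217 bases before the start site, 61.2% of the 32851 RefSeq promoters held at least 1 general E-box and 9.15% held 3 or more. The 2 peaks further upstream, at 636 bp and 944 bp, went the other way in tags, from 27 to 19 and from 17 to 12, and their intervals included 0. The peak 2174 bp downstream of the 5′ end, past the end of the gene, had 16 and 25 tags (0.67, -0.29 to 1.67) and the largest rise in rank.

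Full E-boxes at Gadd45g were in an Ngn3-OE-only peak 29.7 kb upstream with 5 tags and in a shared peak 12.9 kb upstream with 16 tags in control and 11 in Ngn3-OE (-0.52, -1.77 to 0.68). The interval of the shared peak includes 0, and the Ngn3-OE-only peak has no ratio. The strongest Ngn3-OE-only peak of the 3 had 6 tags and lay 15.8 kb upstream, and the only control-only peak, 2.79 kb downstream, had 13 tags.

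Btg2 (ENSMUSG00000020423.6, chr1:134075170-134079120, minus strand), an antiproliferative gene that marks neurogenic divisions, had a strong promoter peak 188 bp upstream with 76 tags in control and 70 in Ngn3-OE (-0.09, -0.58 to 0.39). The strongest Ngn3-OE peak of the window, 18.1 kb downstream, had 93 and 99 tags. The peak 23.6 kb downstream, between genes, had 12 tags in control and 25 in Ngn3-OE, with a log2 ratio of 1.08 (0.04 to 2.21) that did not clear the median of all shared peaks, and no CATCTG core near its summit. The largest fall, 30.2 kb downstream, was from 26 tags to 15 (-0.77, -1.79 to 0.20). A full E-box lay within 100 bp of the control summit of a shared peak 808 bp downstream, with 25 and 21 tags (-0.23, -1.14 to 0.67). Full E-boxes also lay that near to the summits of Ngn3-OE-only peaks 7.10 kb upstream and 16.3 kb downstream. These peaks had 11 and 21 tags, at percentiles 41.8 and 9.07. None of these E-boxes lay inside the called interval of its peak. The highest in rank of the 6 Ngn3-OE-only peaks, 43.2 kb upstream, had 9 tags and percentile 60.2.

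Hes6 (ENSMUSG00000067071.8, chr1:91411483-91414038, minus strand), the antagonist of Hes1, had the strongest promoter of the 9 genes. The peak 106 bp from a start site had 114 tags in control and 118 in Ngn3-OE, with percentiles of 98.1 and 98.3 and a log2 ratio of 0.07 (-0.31 to 0.46). The peak 228 bp upstream had 60 and 51 tags (-0.21, -0.78 to 0.35). No peak of the window had a full E-box within 100 bp of its summit, and Hes6 was the only one of the 9 genes without one. The largest rise, 10.6 kb downstream and 4657 bp from a start site of Ilkap, was from 6 tags to 18 (1.61, 0.21 to 3.23). The largest fall, 33.4 kb downstream in an intron of Ilkap, was from 23 tags to 10 (-1.18, -2.41 to -0.05). In control the strongest peak of the window lay 80 bp from a start site of Per2, with 112 tags against 106 in Ngn3-OE. The control-only peak, 493 bp upstream of Hes6, had 20 tags, and the Ngn3-OE-only peak, 22.4 kb upstream, had 4.

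Sstr2 (ENSMUSG00000047904.6, chr11:113619342-113626028, plus strand), the somatostatin receptor gene, had the highest median log2 ratio of the 9 genes, 0.52, and 13 of its 14 shared peaks had ratios above 0, 11 of them above the median of all shared peaks. Of all shared peaks, 62.3% had ratios above 0. The shared peaks of this window had a median of 9 control tags, and no control peak had more than 17. The peak 7.50 kb upstream, in an intron of Slc39a11, had 17 tags in control and 33 in Ngn3-OE, at percentiles 73.5 and 88.7, a log2 ratio of 0.98 (0.10 to 1.92). It was the strongest Ngn3-OE peak of the window, and its full E-box lies 29.5 bp from the summit. Full E-boxes were also in 3 other shared peaks upstream. The one at 18.3 kb had 9 tags in control and 14 in Ngn3-OE, the one at 35.1 kb had 17 and 21, and the one at 48.7 kb had 6 and 7. All 4 ratios were above 0, and of these only the interval of the peak at 7.50 kb excluded 0, by a margin that was lost relative to the median of all shared peaks.

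The promoter peak of Sstr2, 71 bp upstream, had 15 tags in control and 20 in Ngn3-OE (0.44, -0.60 to 1.51). The largest rise in rank, 15.7 kb downstream, was from 5 tags to 14 (1.51, -0.05 to 3.34), and the largest fall, 6.80 kb upstream, from 9 tags to 5 (-0.82, -2.75 to 0.91). The strongest control-only peak had 4 tags. The strongest Ngn3-OE-only peak, 32.1 kb downstream in an intron and near Cog1, had 11 tags and held 5 full E-boxes spaced 35 bp apart. They lie in a tandem repeat, in which the placement of short reads is uncertain, and capitals mark them below, where the plus strand shows the reverse complement of the consensus.
Sstr2, chr11:113651368-113651555, plus strand: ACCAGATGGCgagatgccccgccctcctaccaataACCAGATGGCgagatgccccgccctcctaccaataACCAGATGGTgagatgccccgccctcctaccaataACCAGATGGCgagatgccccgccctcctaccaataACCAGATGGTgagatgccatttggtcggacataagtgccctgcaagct

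Taken over the 9 windows, the full E-box was more frequent near the summits than in the whole lists. It was present in 20 of 169 Ngn3-OE peaks, 11.8% (7.79 to 17.6), against 4.27% of all Ngn3-OE peaks, and in 13 of 149 control peaks, 8.72% (5.17 to 14.4), against 3.65% of all control peaks. Both intervals excluded the background of their own list, so the share was above the background also in the library that did not receive the Ngn3 plasmid. Outside promoters it was 14.7% (9.12 to 22.9) in Ngn3-OE against 5.20% of all such peaks, and within promoters 7.46% (3.23 to 16.3) against 2.16%. In control it was 11.6% (6.44 to 20.1) outside promoters against 4.45%. Within promoters the control share was 4.76% (1.63 to 13.1) against 1.89%, an interval that includes the background. Without the Sstr2 window, left out after its number of sites was seen, the Ngn3-OE share was 9.93%, and without the repeat peak there alone it was 11.3%. The consensus is the one the study took from regions of these same libraries, so its frequency is a description. The members also lie close to one another in 9 windows and are not independent.

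Ngn3-OE-only peaks had the full E-box in 7 of 40 (17.5%, 8.75 to 31.9, against 4.66% of all Ngn3-OE-only peaks), and control-only peaks in 0 of 19 (upper bound 16.8%, against 2.14%). When a site within 100 bp of the summit of either library was counted, there were 25 sites at 21 peaks of 8 genes. Of the peaks, 14 were shared and 7 Ngn3-OE-only. Counting either summit adds the Btg2 peak at 808 bp, whose site is within 100 bp of the control summit alone. The sites at Btg2 lay outside the called intervals of their peaks, and the Nhlh2 site 3.00 kb downstream lay across the edge of its peak. The 25 sites lay at a median of 41.5 bp from the Ngn3-OE summit, and 14 were within 50 bp of it. There were 10 distinct forms of the 10 bases, the commonest being GCCATCTGCT with 6 sites. The shared peaks with the full E-box had a median log2 ratio of 0.36 with 10 of 14 above 0, and those without it 0.16 with 79 of 116 above 0. Over all shared peaks the medians were 0.29 and 0.11.

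**Figure D4:**
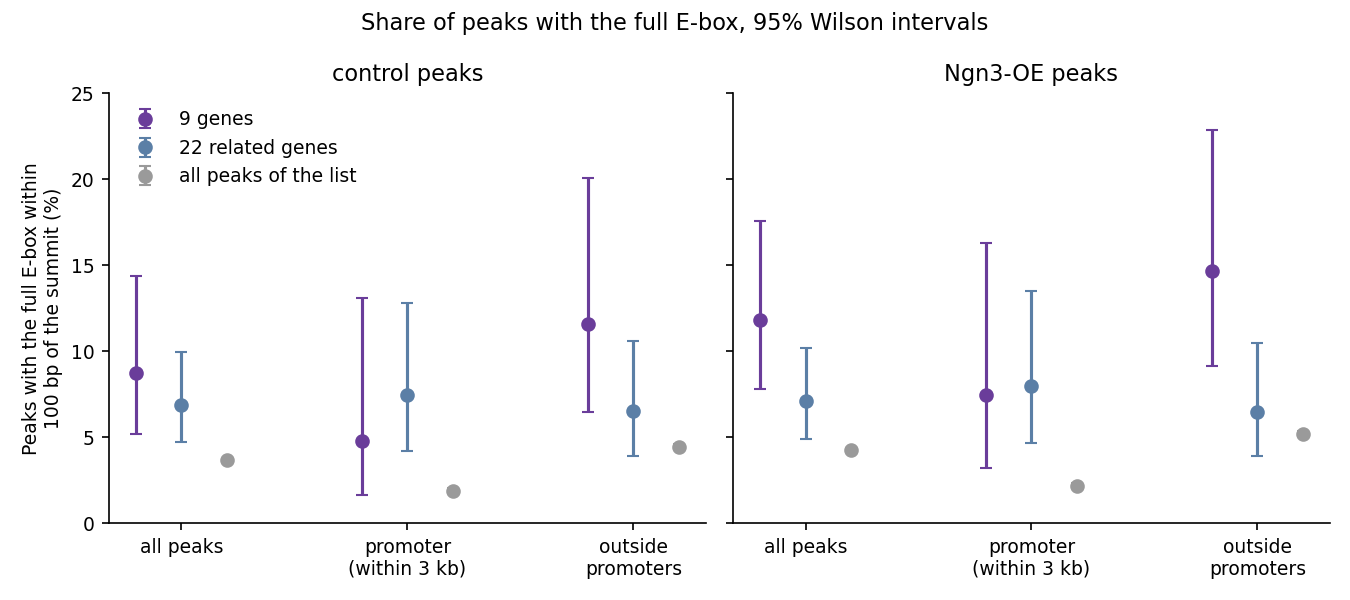
Percentage of peaks with the full E-box within 100 bp of the summit (y axis), in all peaks, promoter peaks and peaks outside promoters (x axis), for the 9 genes, the 22 related genes and the whole list, with 95% Wilson intervals, in control (left) and Ngn3-OE (right). At the 9 genes the share in all peaks is 8.72% in control and 11.8% in Ngn3-OE, and both intervals lie above the values of the whole lists, 3.65% and 4.27%.

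The shorter core CATCTG was present in 51 of 169 Ngn3-OE peaks (30.2%, 23.8 to 37.5, against 22.6% of all) and in 39 of 149 control peaks (26.2%, 19.8 to 33.8, against 21.3%), an interval that includes the background. The SOX-type motif, bound by HMG-box factors such as the progenitor factor Sox2, was present in 17 of 149 control peaks (11.4%, 7.25 to 17.5, against 8.80% of all), 6 of them at Nhlh1, and in 1 of the 40 Ngn3-OE-only peaks (2.50%, 0.443 to 12.9, against 6.64%). Both intervals include their backgrounds. Among the 63 control peaks at promoters the motif was present in 11 (17.5%, 10.0 to 28.6, against 5.83% of all promoter peaks), an interval above the background, and outside promoters in 6 of 86 (6.98%, 3.24 to 14.4, against 10.2%). The shared peaks with it near the summit of either library, also 17 in number, had a median log2 ratio of 0.13, with 2 counting intervals above 1 and 1 below. Over all 8064 shared peaks with the motif the median was 0.02, with 225 intervals above 1 and 632 below. The 250 bases before and 50 after each RefSeq start site (GRCm38) were also searched, with 13 promoters matched for the 9 genes. The core was found in 3 of the 13, at the 3 genes Cbfa2t3, Nhlh1 and Nhlh2, and in 17.2% of 32851 promoters. The full consensus was found in 1 of the 13, at Cbfa2t3, and in 0.938% of all promoters.

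The wider cascade was described with 22 other genes, among them the Notch ligands Dll1 and Dll3, the Neurod factors, Insm1, Ebf2, Ebf3 and the neuronal genes Elavl3, Tubb3 and Dcx. Their windows held 363 control and 367 Ngn3-OE peaks, with 20.1% control-only (16.3 to 24.5, against 21.7% of the whole list) and 21.5% Ngn3-OE-only (17.6 to 26.0, against 26.6%). The first interval includes its background, and the second lies below it. Of 290 shared peaks, 43 rose by 20 percentiles or more (14.8% against 16.0%) and 24 fell (8.28% against 10.5%). The counting interval lay above 1 at 10 (3.45% against 3.70%) and below 1 at 4 (1.38% against 2.27%). The median log2 ratio was 0.16. The regions above 1 were at Mfng, a Notch-modifying glycosyltransferase, with 2, and at Neurod1, Neurod4, Insm1, Ebf2, Ebf3, Rnd2, Tubb3 and Stmn2 with 1 each. Those below 1 were at Dll1, Neurod1, Ebf2 and Cdkn1c, the last a cell cycle inhibitor. The full E-box was near the summit in 7.08% (4.88 to 10.2) of the Ngn3-OE peaks of these genes, against 4.27% of the whole list. In control the share was 6.89% (4.71 to 9.97) against 3.65%. Both intervals lie above their backgrounds, as they did at the 9 genes. The Ngn3-OE interval overlaps that of the 9 genes, and the difference was not tested.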

How the data were processed

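ATAC-seq peak lists of 2 libraries, control and Ngn3-OE, were analysed; groups came from the sample titles. The authors aligned reads to mm10 with Bowtie2 after trimming with Trimmomatic, kept fragments of up to 120 bp, shifted read ends by 4 and 5 bp, and called peaks in each library with MACS2 at a q-value of 0.05. The deposited columns are the summit offset, an integer score, the fold enrichment at the summit, and p-value and q-value as −log10. They are not normalised between libraries, and read totals are not part of the values used, so depth is given as tags at the summit. Longer, nucleosomal fragments are not represented.

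Lines with equal intervals on the 21 chromosomes were merged, keeping the summit with the highest −log10 q; where a summit was missing (4 lines) the midpoint was used. Whole tag numbers were solved from the deposited fold enrichment and −log10 p through the Poisson model of MACS2, and tag ratios were divided by 0.983, the ratio of the lowest backgrounds, 0.2571 in Ngn3-OE and 0.2615 in control. Genes followed GENCODE M21, and promoters were within 3 kb of a start site. A shared peak overlapped the other list by 1 bp. Motifs were searched on both strands within 100 bp of the summit; the full E-box contains the core, so the counts overlap. Wilson intervals were used for shares and exact conditional intervals for ratios, both at 95% and for counting error only. Python 3.11.15 with numpy 2.4.6, scipy 1.17.1 and pandas 2.3.3 was used, and the tag solution was tested on simulated data. For each gene the text gives the strongest peak, promoter peak and one-library peaks, the largest rise and fall in rank, and every peak with the full E-box. The genes, the lists and the sequences shown were chosen with earlier results of these data known.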

Additional observations from a re-analysis of the deposited data

How the results depend on the processing

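Of 82 values recomputed under the alternatives, 59 stayed within the limits set for a change and 23 moved, and no median changed sign. No paired analysis was possible because each group has 1 library, and for the same reason no library could be left out. With a flank of 10 kb the windows held 69 control and 76 Ngn3-OE peaks, with 100 kb 244 and 269, and by nearest protein-coding start site 76 and 88. The control-only share was 23.5% when a shared peak had to overlap by 50% (32.0% of the whole list) and 2.97% for control peaks with a −log10 q of at least 5 (7.89%). Its interval excluded the share of the whole list as reported, at 50% overlap, with summits within 100 bp and among the top 50000 peaks, and included it with either flank, by nearest start site and with either use of the −log10 q limit. The Ngn3-OE-only share was 32.5% at 50% overlap (36.2% of the whole list) and 13.1% for peaks with a −log10 q of at least 5 (10.3%). With a rank limit of 10 percentiles, 30.0% of the shared peaks rose (29.2% of all shared peaks) and 17.7% fell (20.4%), and with 30 percentiles 4.62% rose (7.89%) and 3.85% fell (5.36%). The median rank shift was 4.83 with the 10 kb flank and 2.23 as reported, against 0.963 over all shared peaks. The median log2 tag ratio was 0.32 with the 10 kb flank, 0.25 by nearest start site and 0.06 when all shared peaks were centred on 0, where the median of all shared peaks was 0.12 with either of the first 2. The core E-box share was 21.3% with a 50 bp motif window (14.4% of the whole list), 46.2% with 250 bp (38.2%) and 11.8% for the full E-box (4.27%), and the SOX share was 21.5% with 250 bp (15.6 to 28.7), an interval that includes the share of the whole list. With 50 bp the SOX share was 9.40% (5.68 to 15.2), an interval above the 4.85% of the whole list. The cause of these shifts was not tested, beyond the size of the window or limit itself.

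The settings for the full E-box, and the counting intervals read relative to the median of all shared peaks, were chosen after seeing the data. The full E-box share of Ngn3-OE peaks was 7.10% against 3.05% of the whole list with a 50 bp window, 14.8% against 5.56% with 250 bp, and 8.18% with the 100 kb flank. With 1 library per group and a median of 12 tags at these summits, a difference whose interval includes 0 was not detected.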
